A study of Mus musculus with 21 samples.

Results

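Forebrain RNA of 12 PS19 mice shows how gene expression runs from APOE2 through APOE3 to APOE4 when every animal also carries mutant human tau. The 12 are the columns PE2H, PE3H and PE4H of the count matrix, 4 mice each, out of 21 mice in the series, and are called PS/E2H, PS/E3H and PS/E4H here. All 12 are homozygous for a human APOE allele (APOE2, APOE3 or APOE4) in place of mouse Apoe, and heterozygous for the PS19 transgene, which makes P301S human tau from the mouse prion promoter. The PS19 line was kept on a B6/C3H background and the APOE lines on C57BL6, and these mice come from crossing PS19 offspring back to the APOE lines, so their strain background is mixed. They were killed when their hindlimbs became paralysed. The labels give no age for the single mouse, so allele and age at death cannot be told apart. The other 9 mice, 3 each of E2H, E3H and E4H, have the same APOE alleles and no tau transgene, were killed at 9 to 10 months, and give the same slope in mice that the PS19 slope did not use, and the difference of both slopes.

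ApoE is the main lipid carrier of the brain, made by astrocytes and, in injury, by microglia, and its human alleles differ in how their proteins bind lipid and receptors. Risk of late-onset Alzheimer's disease rises in the order APOE2, APOE3, APOE4. Tau binds microtubules in axons, and P301S tau aggregates in neurons, with gliosis and loss of synapses in aged PS19 mice.

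Each gene was fitted with APOE coded 2, 3 and 4 as one ordered term, which gives a slope: the change in log2 expression per allele step, above 0 where expression is higher in PS/E4H than in PS/E2H. Expression is in CPM, counts scaled to library size by the trimmed mean of M-values, and a gene is said to rise or fall only where edgeR's p, adjusted over all tested genes, is under 0.05. With equal groups the slope rests mostly on PS/E2H against PS/E4H, though PS/E3H can move it in a fit of counts. So the text also says whether the PS/E3H mean lies between the other means, in which case the gene is called in order. How far PS/E3H lies from the midpoint of the other groups, in log2, is called the departure. Where all mice of an allele are said to lie above or below those of another, this comes from the same values as the slope or departure. It is description and adds no separate support, and the share of all genes with PS/E2H and PS/E4H so separated was not counted.

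The libraries express neuronal genes of forebrain, the tissue the study names, though such genes do not show how it was dissected. Slc17a7, the glutamate transporter of cortical neurons, averaged 145 FPKM and Camk2a 212 FPKM. Mouse Apoe, whose coding region the human alleles replace, was at 9.8 to 16.4 CPM in the 12 mice. Its slope was 0.00 (standard error 0.0779), and reads of the human transgenes were not analysed. Total counts ran from 59265459 to 72693566 with a median of 61352387, and their slope had an exact two-sided permutation p of 0.917 over 34650 arrangements of the mice.

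The labels give no sex, but the libraries fall into 2 kinds. Xist, the RNA that coats the inactive X chromosome, was at 206 to 416 CPM in 9 of the 12 mice. Ddx3y, a helicase gene of the Y chromosome, was at 43.0 CPM in PS/E2H replicate 2, 59.1 in PS/E4H replicate 1 and 65.2 in PS/E4H replicate 4. These 3 mice are the ones without Xist, so 3 of 4 PS/E2H, 4 of 4 PS/E3H and 2 of 4 PS/E4H mice have Xist. The methods of the study describe most of its mice as male, while most of these libraries hold Xist, so that group by group the libraries show the reverse of the sexes stated. Only the measured genes are used here. Sex chromosome content is not balanced over the alleles, and the 6 called slopes are also given below in the 9 mice with Xist and with Xist as a covariate.

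Of 20589 genes tested, 6 passed (0.0291%): 1 rose from APOE2 to APOE4 (0.00486%) and 5 fell (0.0243%), and in all 6 the PS/E3H mean lay between the others. At an unadjusted p under 0.05 by edgeR there were 2572 genes (12.5%), 1243 with slopes above 0 (6.04%) and 1329 below 0 (6.45%). DESeq2 with the same ordered term called 180 (0.874%), 88 rising (0.427%) and 92 falling (0.447%), the 6 edgeR genes among them. Slopes were centred: 50.1% were above 0 and the median was 0.00, with quartiles at -0.08 and 0.08. Group means were in rising order in 17.9% of genes and in falling order in 18.3%, and both an unadjusted p under 0.05 and ordered means were met by 4.93% rising and 5.44% falling. PS/E3H lay outside the other means in 436 of the 2572 genes with an unadjusted p under 0.05, which are not ordered in the sense used here.

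The count of 6 rests most on the PS/E2H mice and on PS/E4H replicate 1. Without PS/E2H replicate 1, 3 or 4 edgeR called 0 genes, at 2103, 3281 and 1713 genes with an unadjusted p under 0.05, and without PS/E2H replicate 2 or PS/E4H replicate 1 it called 2 in each case. Leaving out any other mouse gave 4 to 8. DESeq2 was not run on fewer mice. In the 9 mice with Xist, a comparison chosen after seeing the data, edgeR called 0 genes at 1233 with an unadjusted p under 0.05.

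**Figure D1:**
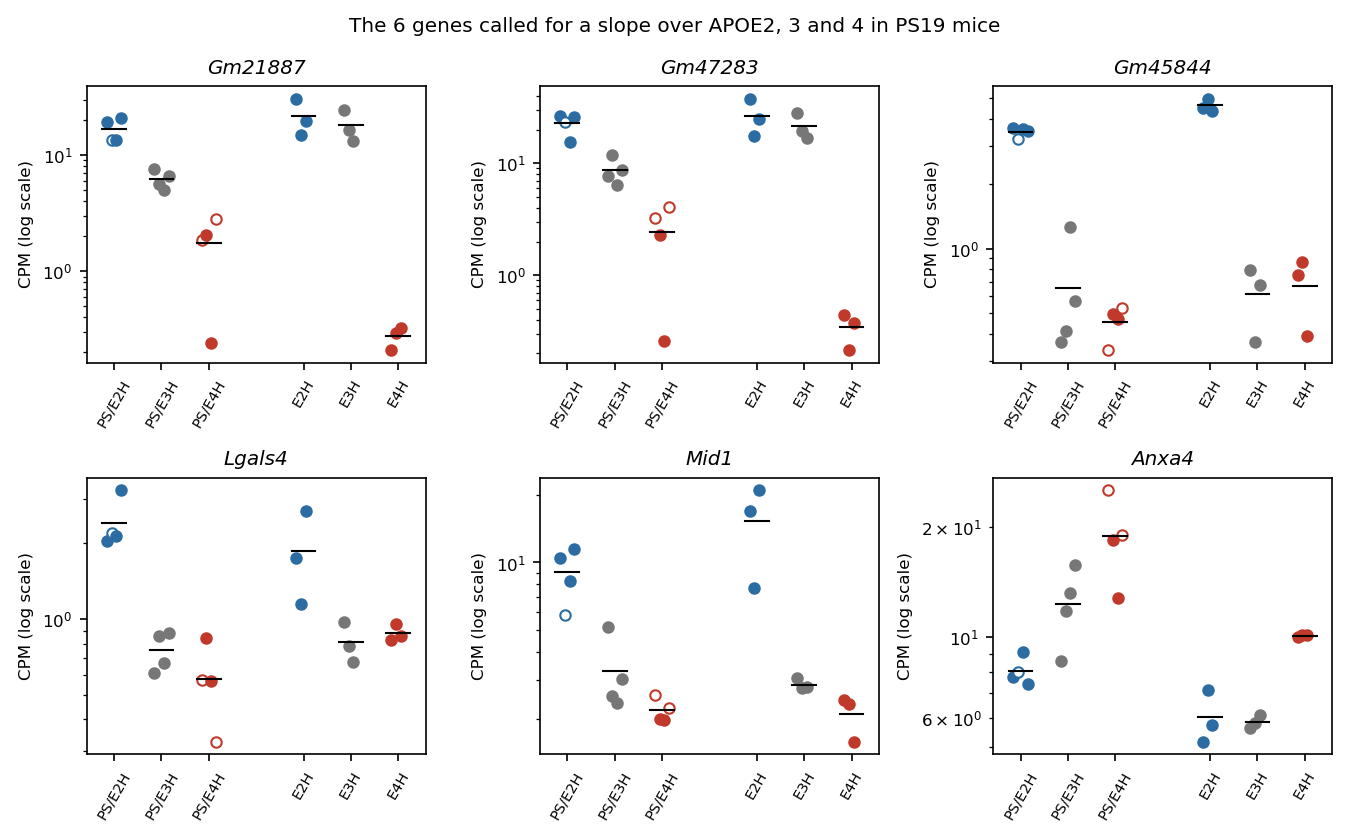
CPM of the 6 called genes in each of the 12 PS19 mice and of the 9 mice without the tau transgene, by APOE allele. Open circles are the 3 PS19 mice without Xist, and bars are group means. E4H replicate 3, with Xist at 2.54 CPM, is drawn filled.

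Of the 5 falling genes, 3 lie at or next to the pseudoautosomal region, the stretch that X and Y share and exchange. Gm21887 (chrX:170009659-170019281, GRCm38, plus strand) is annotated by RefSeq as Erdr1, a gene of that region. In PS/E2H mice it was at 19.3, 13.5, 13.4 and 20.8 CPM (replicates 1 to 4). PS/E3H mice had 7.55, 5.59, 4.96 and 6.61 CPM, and PS/E4H mice 1.87, 2.05, 0.243 and 2.83. No mouse of any allele overlaps the next, so all 12 mice stand in allele order. The slope was -1.62 (standard error 0.213), with an edgeR adjusted p of 0.0167 and all 4 PS/E4H mice below all 4 PS/E2H mice. It also passed in 8 of the 12 fits that leave out 1 mouse, and missed without PS/E2H replicate 1, 3 or 4 or PS/E4H replicate 1 (edgeR adjusted p 0.0823, 0.06, 0.0706 and 0.0559, slopes -1.57 to -1.67, with every mouse still in order).

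Gm47283 (chrY:90784738-90816464, GRCm38, plus strand) is annotated on the Y chromosome and ran almost the same way. It was at 26.4, 23.4, 15.5 and 25.8 CPM in PS/E2H mice, 7.74, 11.9, 6.37 and 8.73 in PS/E3H mice and 3.23, 2.29, 0.259 and 4.04 in PS/E4H mice, again with no overlap. Its slope was -1.59 (standard error 0.236; edgeR adjusted p 0.0327; all 4 PS/E4H mice below all 4 PS/E2H mice). PS/E2H replicate 1 has 1817 counts of Gm47283 and 0 counts of Ddx3y. So Gm47283 has reads in a library with 0 counts of Ddx3y, and their source was not tested. It missed the threshold without any 1 of the 4 PS/E2H mice, PS/E3H replicate 3 or PS/E4H replicate 1 or 2 (edgeR adjusted p 0.0525 to 0.16, with slopes of -1.57 to -1.68 and the same direction).

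Sequence shows why counts of Gm21887 and Gm47283 cannot be told apart in part. A coding exon of 390 bases is the same in both at 390 of 390 positions: chrX:170010674-170011063 and chrY:90785590-90785979, GRCm38, plus strand. Its last 120 bases are shown, chrX:170010944-170011063 and chrY:90785860-90785979, in lower case throughout because no base differs.
Gm21887: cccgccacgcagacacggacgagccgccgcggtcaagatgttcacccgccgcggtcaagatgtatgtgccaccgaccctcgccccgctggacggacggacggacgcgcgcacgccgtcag
Gm47283: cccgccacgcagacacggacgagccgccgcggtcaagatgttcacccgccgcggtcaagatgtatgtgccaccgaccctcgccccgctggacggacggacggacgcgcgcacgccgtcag
Over all annotated transcripts, 482 of the 808 distinct 50-base windows of Gm21887 (59.7%) occur in Gm47283, where they make up 40.5% of 1190. A read of the shared stretch can be counted to either gene, so both are given as uncertain and are best read as 1 result.

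Mid1 (chrX:169685199-170005736, GRCm38, plus strand) encodes a microtubule-bound ubiquitin ligase, and in C57BL/6-type mice it spans the boundary of the pseudoautosomal region, just before Gm21887. PS/E2H mice had 10.5, 5.86, 8.25 and 11.5 CPM, PS/E3H mice 5.15, 2.55, 2.38 and 3.04, and PS/E4H mice 2.58, 2.01, 1.99 and 2.25. Every PS/E2H mouse is above every other mouse, while PS/E3H and PS/E4H overlap by a narrow margin. Most of the fall comes at the first step: -1.47 from APOE2 to APOE3 and -0.50 from APOE3 to APOE4, as differences of mean log2 CPM. The slope was -1.02 (standard error 0.134; edgeR adjusted p 0.0167; all 4 PS/E4H mice below all 4 PS/E2H mice), and it missed only without PS/E2H replicate 1, 3 or 4 (edgeR adjusted p 0.0823, 0.06 and 0.0706, slopes -0.96, -1.01 and -0.93). Of its 6904 windows, 15% occur elsewhere, all of these in Mid1-ps1.

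In the 9 mice with Xist, the slopes of these 3 genes were -1.90 for Gm21887, -1.94 for Gm47283 and -1.21 for Mid1, and none passed (edgeR adjusted p 0.262, 0.29 and 0.213, with 3 PS/E2H and 2 PS/E4H mice). With Xist as a covariate in all 12 mice, all 3 passed (edgeR adjusted p 0.0345 each). These slopes are steeper in the 9 mice than in all 12, and the part of sex chromosome content in them was not tested. In mice without the tau transgene the levels of Gm21887 do not have the same middle. E2H mice had 30.7, 14.9 and 19.5 CPM and E3H mice 24.5, 16.6 and 13.3, which overlap, while E4H mice had 0.208, 0.293 and 0.322. PS/E4H replicate 3, at 0.243 CPM, is at the level of these E4H mice, and the other PS/E4H mice are above it. Mid1 has the middle of the PS19 mice: 17.0, 7.69 and 21 CPM in E2H, 3.05, 2.75 and 2.78 in E3H and 2.43, 2.34 and 1.59 in E4H.

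The other 2 falling genes are on chromosome 7, which also holds Apoe. Gm45844 (chr7:7213017-7278289, GRCm38, minus strand) lies 12.5 Mb from Apoe, next to Zfp772. PS/E2H mice had 3.64, 3.23, 3.59 and 3.54 CPM, against 0.369, 0.414, 1.26 and 0.571 in PS/E3H and 0.336, 0.495, 0.469 and 0.528 in PS/E4H mice. PS/E2H stands apart and the other alleles overlap, so this is a step between APOE2 and the rest (-2.53, then -0.34) more than a slope over 3 alleles. The slope was -1.49 (standard error 0.204; edgeR adjusted p 0.0167; all 4 PS/E4H mice below all 4 PS/E2H mice), and the departure was -0.96, with an unadjusted edgeR p of 0.00699 that fails the adjustment. It missed without any 1 of the PS/E2H mice or PS/E4H replicate 1 (edgeR adjusted p 0.0578 to 0.0823, slopes -1.45 to -1.48). It passed with Xist as a covariate (slope -1.53, edgeR adjusted p 0.0345) and not in the 9 mice with Xist (-1.56, 0.367). Its transcripts share 42.7% of 6778 windows with 67 other genes, most with the vomeronasal receptor Vmn2r29, so its counts may hold reads of relatives and it is given as uncertain.

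Lgals4 (chr7:28833854-28841708, GRCm38, plus strand) encodes galectin-4, a lectin of gut epithelium that binds beta-galactosides, and lies 9.14 Mb from Apoe on the other side. It was at 2.05, 2.19, 2.14 and 3.25 CPM in PS/E2H mice, 0.61, 0.86, 0.667 and 0.885 in PS/E3H mice and 0.576, 0.842, 0.566 and 0.326 in PS/E4H mice. Here too PS/E2H stands apart and the others overlap, with steps of -1.62 and -0.42. The slope was -1.04 (standard error 0.162; edgeR adjusted p 0.0446; all 4 PS/E4H mice below all 4 PS/E2H mice). Counts per mouse were only 21 to 193, and the call held in 2 of the 12 fits that leave out 1 mouse, those without PS/E3H replicate 1 or PS/E4H replicate 2. In the other 10 the edgeR adjusted p was 0.0517 to 0.174, with slopes of -1.07 to -0.92. It passed neither with Xist as a covariate (slope -1.04, edgeR adjusted p 0.0644) nor in the 9 mice with Xist (-0.98, 0.599). Of its 2457 windows, 0 occur in another gene. Levels in mice without the transgene, 1.75, 1.15 and 2.69 CPM in E2H, 0.98, 0.782 and 0.678 in E3H and 0.83, 0.959 and 0.86 in E4H, have the same step.

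Anxa4 is the 1 gene that rose (chr6:86736840-86793584, GRCm38, minus strand). It encodes annexin A4, which binds membrane phospholipids when calcium is present. PS/E2H mice had 7.75, 8.02, 9.11 and 7.44 CPM, PS/E3H mice 8.57, 11.8, 13.2 and 15.7, and PS/E4H mice 25.2, 18.4, 12.8 and 19.0. All PS/E4H mice are above all PS/E2H mice, and the PS/E3H mice overlap both. Of the 6 genes it comes nearest to equal steps, 0.58 and 0.61, and its departure was -0.01. The slope was 0.61 (95% interval 0.40 to 0.83; edgeR adjusted p 0.0446; all 4 PS/E4H mice above all 4 PS/E2H mice). It held in 3 of the 12 fits that leave out 1 mouse, those without PS/E3H replicate 1 or 4 or PS/E4H replicate 3. In the other 9 the edgeR adjusted p was 0.0526 to 0.247, with slopes of 0.53 to 0.65. Its highest values, in PS/E4H replicates 1 and 4, are those of mice without Xist. It passed neither with Xist as a covariate (slope 0.58, edgeR adjusted p 0.0869) nor in the 9 mice with Xist (0.49, 0.646), and was called in 4 of 10 other settings in all. Without the transgene, E2H mice had 5.16, 7.16 and 5.73 CPM, E3H mice 5.63, 5.8 and 6.12 and E4H mice 10, 10.1 and 10.1, so there only E4H stands apart.

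None of the 6 passed in the 9 mice without tau, where their slopes were -2.62 for Gm21887, -2.64 for Gm47283, -1.44 for Mid1, -1.43 for Gm45844, -0.55 for Lgals4 and 0.37 for Anxa4. The edgeR adjusted p of these slopes ran from 0.0559 (Mid1) to 0.27 (Lgals4), with the direction of the PS19 slope in each. The difference of slopes between PS19 and other mice was not called for any of the 6 either (edgeR adjusted p 0.501 to 0.963). On log2(FPKM + 1) the slopes of the low genes shrink, to -0.38 for Mid1, -0.24 for Gm45844 and -0.33 for Lgals4 by limma, since their mean FPKM is under 1.

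**Figure D2:**
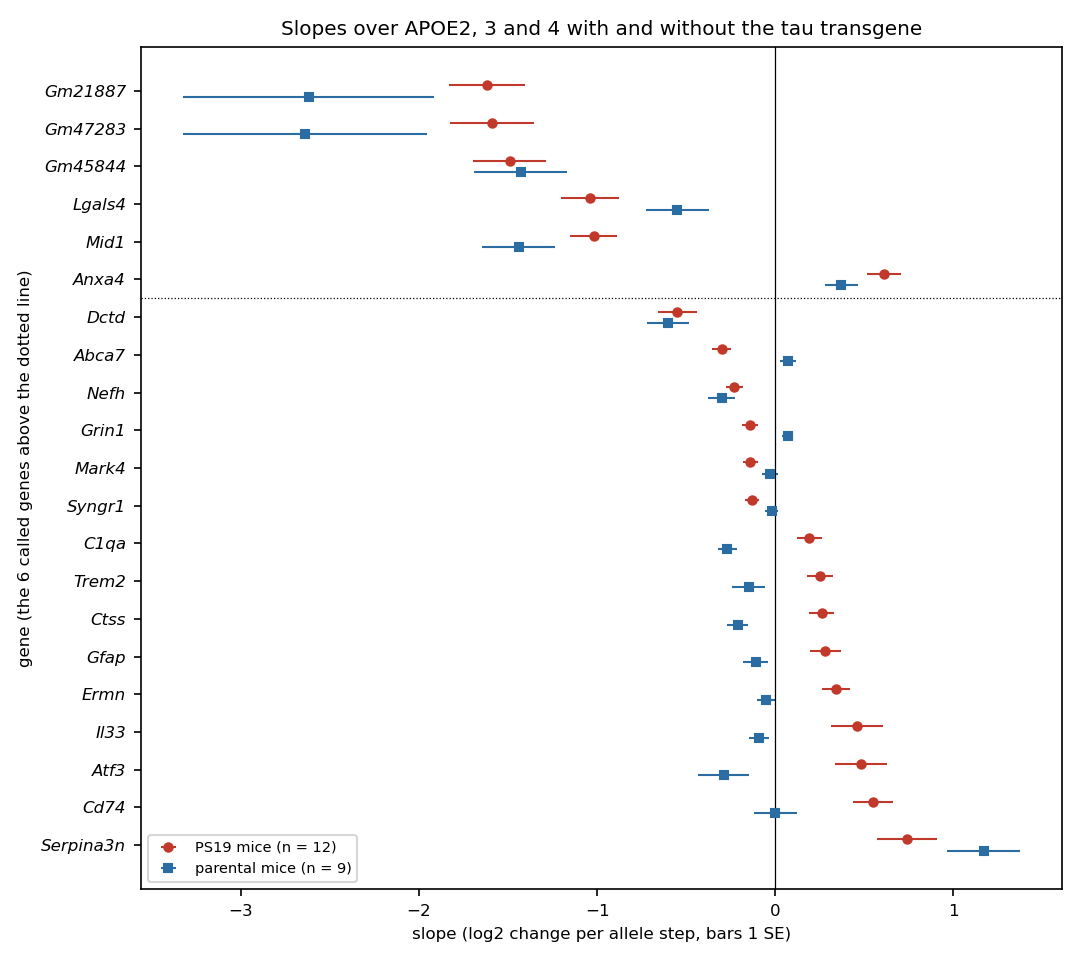
Slope per allele step of the 6 called genes, above the dotted line, and of some uncalled genes, below it, in the 12 PS19 mice and in the 9 mice without the tau transgene. Bars are 1 standard error.

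A stricter reading of order asks every mouse of an allele to lie beyond every mouse of the next. Rising in that sense was 1 gene (0.00486%) and falling were 5 (0.0243%). Gm21887 and Gm47283 are 2 of the 6, and the other 4, named after their values were seen, did not pass. Gm13601 had a slope of -2.27 (edgeR adjusted p 0.171), Loxhd1 -1.25 (0.221), Icmt -0.10 (0.264) and Ccdc90b 0.19 (0.187), with all 12 mice in order in each. Icmt methylates the end of prenylated proteins such as Ras, and its slope shows that perfect order can go with a small change.

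The region around Apoe holds more genes with low p-values, a description chosen after values were seen. Within 15 Mb of Apoe, 98 of 437 tested genes had an unadjusted edgeR p under 0.05 (22.4%), 31 with slopes above 0 and 67 below, against 12.4% of 1162 genes on the rest of chromosome 7 and 12.3% of 18990 on other chromosomes. Zfp772, a zinc finger gene beside Gm45844, had a slope of -0.41 (edgeR adjusted p 0.114) and a mean log2 CPM of 3.52, 2.93 and 2.69. Pglyrp1, which binds bacterial peptidoglycan, and its neighbour Ccdc61 had slopes of -1.01 and -0.58 (edgeR adjusted p 0.125 each). Their mean log2 CPM was 2.67, 0.91 and 0.74 for Pglyrp1 and 2.64, 1.55 and 1.49 for Ccdc61 in PS/E2H, PS/E3H and PS/E4H. Zfp14, another zinc finger gene of the region, ran upward, with a slope of 0.46 (edgeR adjusted p 0.125) and 3.39, 4.25 and 4.29. All of these have their larger step between APOE2 and APOE3, like Gm45844 and Lgals4.

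Departure from a straight line was called for 13 of 21086 genes (0.0617%), 10 with PS/E3H above the midpoint (0.0474%) and 3 below (0.0142%), at 1748 with an unadjusted edgeR p under 0.05 (8.29%). DESeq2 called 47. All 3 genes below the midpoint are on chromosome 7. Oscar, a receptor of osteoclasts and myeloid cells, was at 1.19, 1.08, 1.25 and 1.75 CPM in PS/E2H mice, 0.142, 0.0637, 0.0953 and 0.157 in PS/E3H mice and 1.36, 1.07, 1.1 and 1.34 in PS/E4H mice. Its departure was -3.44 (edgeR adjusted p 0.000267; all 4 PS/E3H mice lowest), beside a slope of -0.05, so a gene can differ strongly by allele and have no ordered term. Eps8l1, of a family that caps actin filaments, had group means of 5.09, 1.18 and 4.67 CPM, a departure of -2.05 (edgeR adjusted p 0.00159; all 4 PS/E3H mice lowest) and a slope of -0.06. Gm15510 had 1.56, 0.168 and 1.59 CPM and a departure of -3.21 (edgeR adjusted p 0.00145; all 4 PS/E3H mice lowest).

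The 10 genes above the midpoint are low in PS/E2H and high in both other groups. Gm45104, on chromosome 7, was at 0.222 to 0.696 CPM in PS/E2H mice, 7.84 to 11.8 in PS/E3H mice and 6.29 to 9.3 in PS/E4H mice (departure 2.42, edgeR adjusted p 0.000173; PS/E2H lowest in 4 of 4 mice). Gm10591, Gm13304, Gm17081, Ccl21b, Gm21541 (also Ccl21d) and Gm5859 lie within 1 stretch of chromosome 4. Sequence shared between these genes was not counted, so whether they are separate results is not known. Ccl21b, a chemokine that draws CCR7-bearing cells, had 0.0647 to 0.154 CPM in PS/E2H mice, 1.42 to 5.95 in PS/E3H mice and 4.52 to 6.49 in PS/E4H mice. Its slope, 2.39, had an adjusted p of 0.165 by edgeR, which does not pass, and 8.52e-06 by DESeq2 (4 of 4 PS/E4H mice above every PS/E2H mouse), and its departure of 2.32 passed (edgeR adjusted p 0.00881). The slope was called in 5 of 10 other settings and in 0 of the 12 fits that leave out 1 mouse. Gm21541 was alike, at a slope of 2.26 with an adjusted p of 0.125 by edgeR and 3.42e-06 by DESeq2, called in 5 of 10 other settings and in 1 of the 12 fits. Gm16867, Gm27177 and ENSMUSG00000118458, which like Gm17081 and Gm5859 are named after their values were seen, complete the 10, with PS/E2H means of 0.5, 0.501 and 0.275 CPM and PS/E4H means of 12.9, 10.2 and 2.61. For Ccl21b the steps were 4.63 and 0.66 in mean log2 CPM, so most of its difference lies between APOE2 and the other alleles, and whether its slope passes depends on the method.

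Abca7, Nefh and Dctd did not pass in the main edgeR fit. Each has all PS/E4H mice below all PS/E2H mice, which rests on the same values as its slope. In that order, they were called in 3, 2 and 3 of 10 other settings. Of the 12 fits that leave out 1 mouse, 1, 0 and 0 called them. Abca7, a lipid exporter and a risk gene for Alzheimer's disease, was at 21.3, 18.7, 16.7 and 19.0 CPM in PS/E2H mice, 16.2, 18.9, 15.6 and 15.2 in PS/E3H mice and 12.8, 12.9, 13.1 and 11.3 in PS/E4H mice. All PS/E4H mice are below all others, and PS/E2H and PS/E3H overlap. The slope of -0.30 (standard error 0.0526) had an adjusted p of 0.123 by edgeR and 0.000119 by DESeq2, with 4 of 4 PS/E4H mice below every PS/E2H mouse. In mice without the transgene it was 0.07, a difference of -0.37 that did not pass (edgeR adjusted p 0.118). Nefh, the heavy neurofilament chain of large axons, was at 178, 143, 144 and 154 CPM in PS/E2H mice, 120, 134, 113 and 121 in PS/E3H mice and 117, 119, 115 and 94.0 in PS/E4H mice. PS/E2H mice are all above the rest. Its slope of -0.23 had an adjusted p of 0.125 by edgeR and 0.00207 by DESeq2 (4 of 4 PS/E4H mice below every PS/E2H mouse), and it was -0.30 in mice without the transgene. Dctd, a deaminase of nucleotide synthesis, differs at the other end, with means of 6.89, 6.72 and 3.20 CPM and a slope of -0.55 (edgeR adjusted p 0.145; 4 of 4 PS/E4H mice below every PS/E2H mouse).

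Gene lists describe pathways and cell types. In bulk tissue, fewer cells of a type and less RNA per cell cannot be told apart. The 42 lists hold 626 tested genes, of which edgeR called 0, at 67 with slopes above 0 and 30 below 0 at an unadjusted p under 0.05, and DESeq2 called 10 (8 rising and 2 falling). Medians are read against 0.00 for all tested genes, and counts at an unadjusted p against 6.04% above 0 and 6.45% below. List members share cells and regulators and are not independent, so no list was tested.

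**Figure D3:**
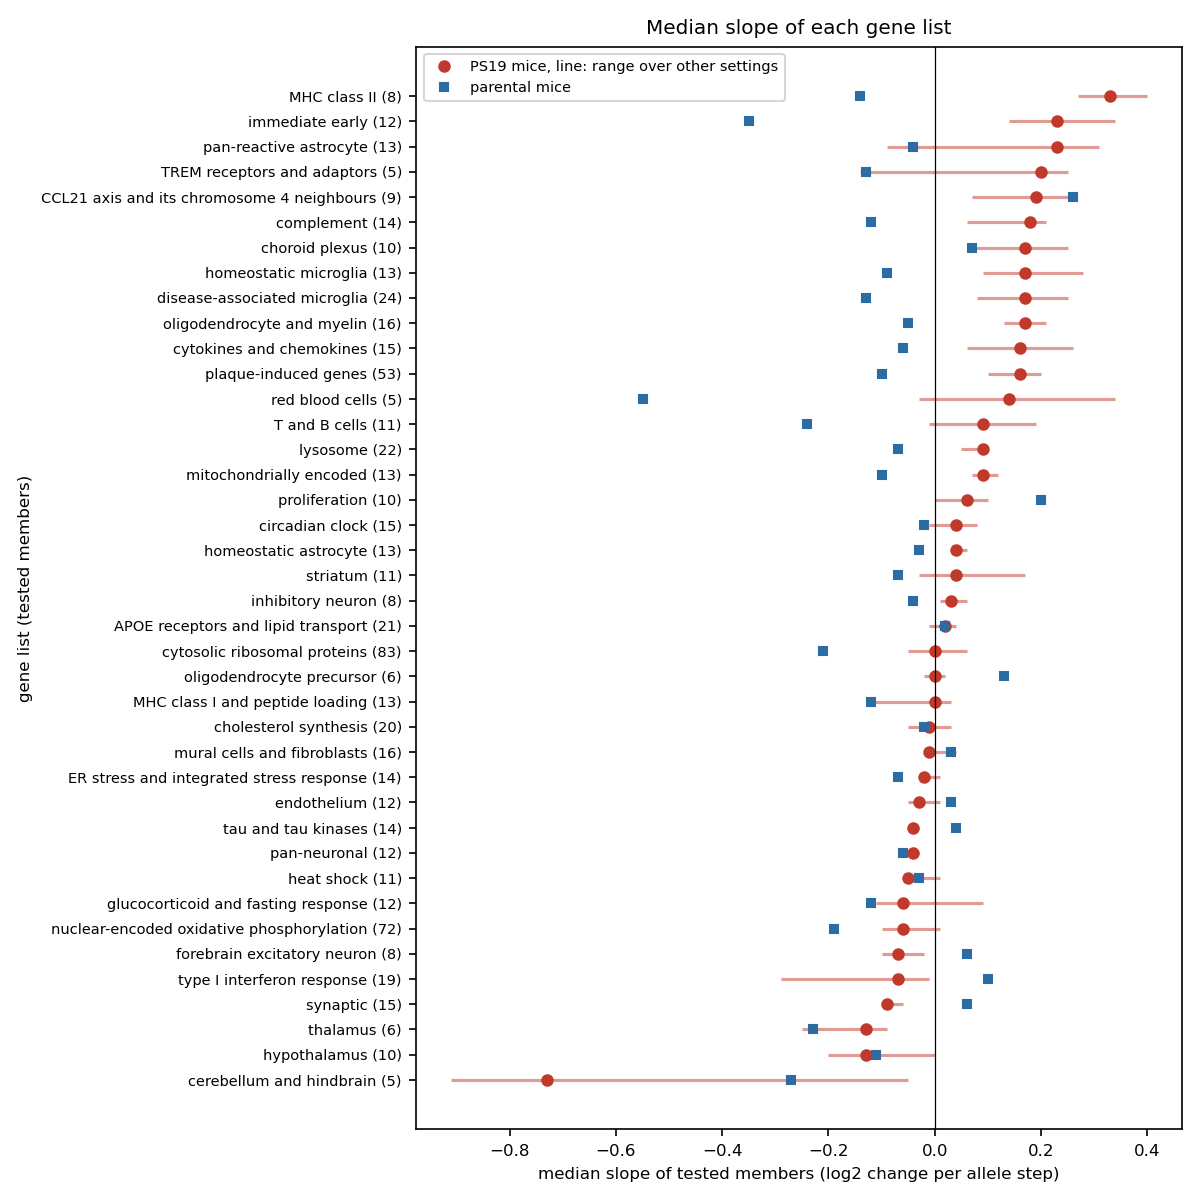
Median slope per allele step of each list with at least 5 tested members. Lines give the range over the other settings, and squares the median in the 9 mice without the tau transgene.

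Microglia survey the brain and, near damage, take up the disease-associated state that depends on the receptor Trem2. Of 24 disease-associated genes, 22 had slopes above 0, 15 were in rising order and 7 had an unadjusted p under 0.05 with a slope above 0, at a median of 0.17. Homeostatic genes, which mark resting microglia and usually go down in that state, had the same median: 12 of 13 above 0, 8 in rising order and 6 at an unadjusted p under 0.05. Both microglial lists thus lean the same way, toward APOE4. Trem2 itself was at 34.4, 38.1, 36.5 and 24.0 CPM in PS/E2H mice, 31.7, 42.4, 39.6 and 45.4 in PS/E3H mice and 54.7, 44.7, 39.3 and 49.6 in PS/E4H mice, with a slope of 0.25 that did not pass (edgeR adjusted p 0.264; 4 of 4 PS/E4H mice above every PS/E2H mouse). Among the 5 tested TREM receptors and adaptors the median was 0.20, but -0.14 in the 9 mice with Xist, and Tyrobp, the adaptor of Trem2, had a slope of 0.20.

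Single mice weigh on these medians. Summed CPM of the homeostatic genes was 780, 813, 860 and 513 in PS/E2H mice, 679, 818, 843 and 916 in PS/E3H mice and 1002, 858, 861 and 968 in PS/E4H mice. PS/E2H replicate 4 is the lowest of the 12, and PS/E3H replicate 1 is lower than 3 of the 4 PS/E2H mice. For the disease-associated genes the sums were 3055, 3190, 3712 and 2848 in PS/E2H, 2693, 3569, 3503 and 4305 in PS/E3H and 4622, 3588, 3310 and 3681 in PS/E4H, which overlap, with PS/E4H replicate 1 highest. The median slope of the homeostatic list ran from 0.09 to 0.28 with each mouse left out, and that of the disease-associated list from 0.10 to 0.25. In the 9 mice with Xist they were 0.17 and 0.08.

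Antigen presentation by MHC class II had the highest median of the lists with 5 or more tested members, 0.33, and it lay between 0.27 and 0.40 in every other setting run. Of its 8 genes, 7 were in rising order and 5 had an unadjusted p under 0.05. Cd74, the invariant chain that guides class II molecules, was at 18.3, 31.5, 28.1 and 20.8 CPM in PS/E2H mice, 22.7, 31.2, 31.8 and 41.7 in PS/E3H mice and 51.8, 53.2, 71.9 and 33.3 in PS/E4H mice. Every PS/E4H mouse is above every PS/E2H mouse. The slope of 0.55 (standard error 0.113) had an adjusted p of 0.154 by edgeR and 0.0235 by DESeq2, with 4 of 4 PS/E4H mice above every PS/E2H mouse. H2-Aa, a class II chain named after its values were seen, had a slope of 0.47. Ciita, the transcription factor that turns class II genes on, had means of 0.615, 0.841 and 0.593 CPM. MHC class I genes had a median of 0.00, with steps of -0.18 and 0.17.

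**Figure D4:**
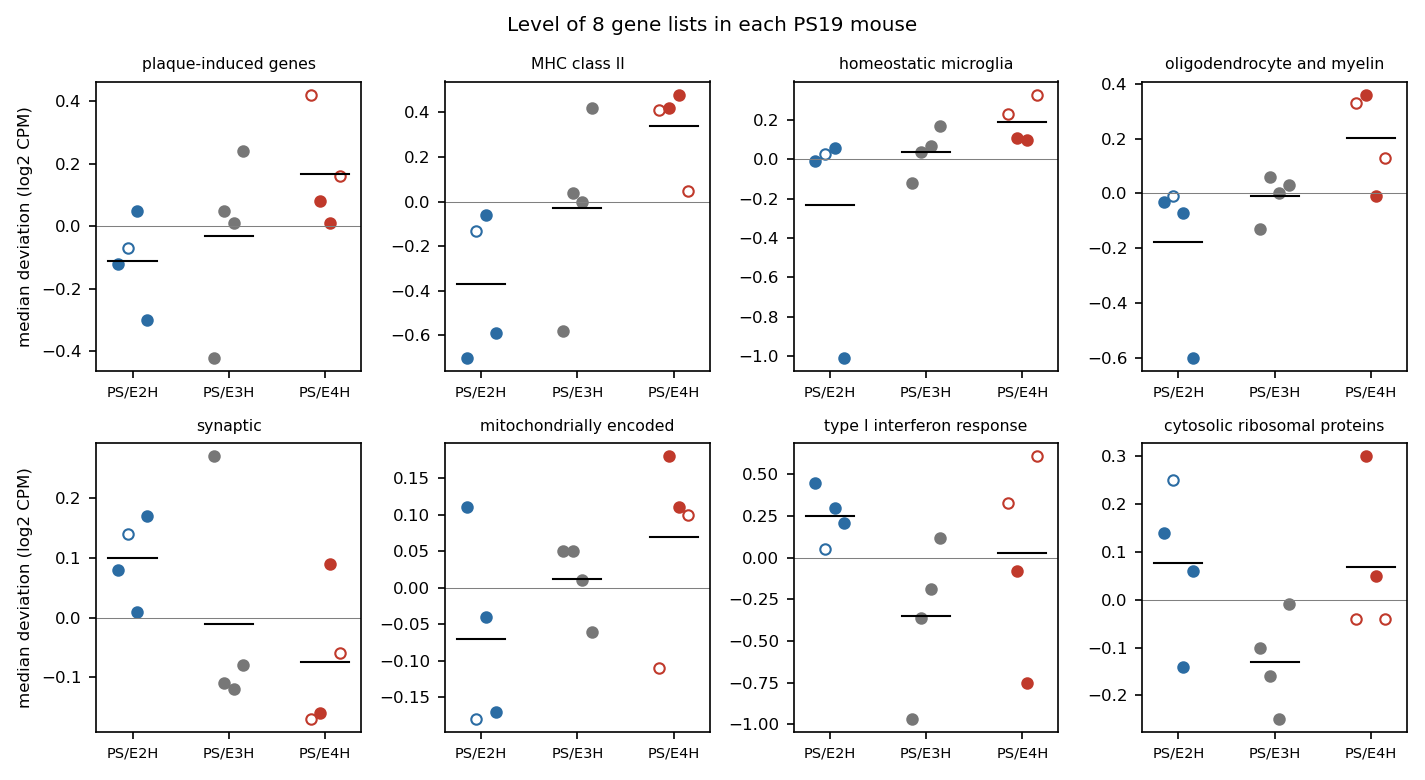
Level of 8 lists in each mouse: the median over members of log2 CPM minus the gene's mean over the 12 mice. Open circles are mice without Xist, and lines are group means.

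Complement genes, which tag material for microglia, had a median of 0.18 over 14 genes (0.06 to 0.21 over the other settings), 4 at an unadjusted p under 0.05, all above 0. In all, 10 slopes were above 0 and 4 below, with 4 genes in rising and 3 in falling order. C3ar1, the receptor for the C3a fragment, had a slope of 0.37 (means 8.53, 12.1 and 14.1 CPM). C1qa, which starts the classical pathway, had means of 149, 148 and 194 CPM, so its slope of 0.19 is a step at APOE4. C5ar1, the receptor for C5a, had the lowest slope of the list, -0.58 (means 1.61, 0.989 and 0.718 CPM; edgeR adjusted p 0.404). Plaque-induced genes, a signature first described around amyloid, form the largest glial list: 49 of 53 slopes were above 0, 33 were in rising order, and 24 above 0 and 1 below had an unadjusted p under 0.05. Their median was 0.16, with steps of 0.11 and 0.20, and 0.10 to 0.20 over the other settings. Syngr1, a synaptic vesicle protein in that list, had a slope of -0.13. Cytokines and chemokines had a median of 0.16 over 15 genes (0.06 to 0.26 over the other settings; 2 above 0 and 1 below at an unadjusted p under 0.05), with Il33, an alarm cytokine of oligodendrocytes and astrocytes, at 67.4, 112 and 127 CPM. Cx3cl1, the neuronal ligand of a microglial receptor and the most abundant member, had a slope of -0.13 (edgeR adjusted p 0.362), and the summed CPM of the list was 644, 636 and 631. The 9 tested genes of the CCL21 axis go both ways, 5 slopes above 0 and 4 below, at a median of 0.19 (0.07 to 0.25) with median steps of 0.58 and 0.10. Ccl27a, a skin chemokine and the most abundant of them, had a slope of -0.19 (edgeR adjusted p 0.285), and the summed CPM of the list was 81.7, 80.2 and 79.4.

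Reactive astrocytes form scars and secrete acute-phase proteins. The pan-reactive list had a median of 0.23, with 12 of 13 slopes above 0 and 2 at an unadjusted p under 0.05, but its median was -0.09 in the 9 mice with Xist and 0.03 to 0.31 with each mouse left out. Serpina3n, a protease inhibitor, was at 119, 105, 190 and 186 CPM in PS/E2H mice, 73.2, 171, 197 and 300 in PS/E3H mice and 548, 418, 424 and 262 in PS/E4H mice. All PS/E4H mice are above all PS/E2H mice, and PS/E3H spans from the lowest mouse of the 12 to the PS/E4H range. Its slope was 0.74 (edgeR adjusted p 0.187; 4 of 4 PS/E4H mice above every PS/E2H mouse). Gfap, the astrocyte filament, had means of 1341, 1560 and 1973 CPM and a slope of 0.28. Homeostatic astrocyte genes had a median of 0.04, with 2 of 13 at an unadjusted p under 0.05.

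Oligodendrocytes wrap axons in myelin. All 16 slopes of their list were above 0, 12 were in rising order and 9 had an unadjusted p under 0.05, at a median of 0.17 that lay between 0.13 and 0.21 in every other setting. Ermn, a late myelin protein, was at 94.3, 69.3, 91.2 and 54.3 CPM in PS/E2H mice, 87.6, 103, 118 and 91.3 in PS/E3H mice and 127, 144, 109 and 110 in PS/E4H mice. Its slope of 0.34 had an adjusted p of 0.191 by edgeR and 0.0054 by DESeq2 (4 of 4 PS/E4H mice above every PS/E2H mouse). Mbp, the most abundant myelin gene, was not in order: 3603, 3349 and 4043 CPM. In summed CPM the list was at 8230, 8004, 7367 and 6666 in PS/E2H, 7219, 7650, 7453 and 7426 in PS/E3H and 9516, 10223, 8162 and 7999 in PS/E4H mice, so the sums follow Mbp and do not separate APOE2 from APOE3. Oligodendrocyte precursor genes had a median of 0.00 over 6 genes.

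Lysosomal genes had a median of 0.09 over 22 (0.05 to 0.10 over the other settings), with 18 above 0 and 6 at an unadjusted p under 0.05. Ctss, a cysteine protease of microglia, was at 216, 231 and 306 CPM with a slope of 0.26. Psap, which yields the activators of lipid breakdown, had a slope of -0.06. Genes for APOE receptors and lipid transport had a median of 0.02 (-0.01 to 0.04 over the other settings), with 2 of 21 above 0 and 1 below at an unadjusted p under 0.05. Lpl, a lipase, had a slope of 0.19 and is also in the disease-associated list, while Abca7 is the member below 0. Cholesterol synthesis genes had a median of -0.01 over 20 (-0.05 to 0.03).

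Synaptic, pan-neuronal and excitatory lists lean the other way, by less. Of 15 synaptic genes, 14 had slopes below 0, 11 were in falling order and 5 had an unadjusted p under 0.05, at a median of -0.09 that lay between -0.10 and -0.06 in every other setting. Grin1, the shared subunit of NMDA receptors, was at 428, 446, 387 and 450 CPM in PS/E2H mice, 472, 356, 351 and 373 in PS/E3H mice and 344, 330, 391 and 334 in PS/E4H mice. PS/E3H replicate 1 is the highest of the 12 and the other PS/E3H mice are near PS/E4H, and the slope was -0.14. Pan-neuronal genes had a median of -0.04, with 11 of 12 below 0 and 3 at an unadjusted p under 0.05, Nefh among them. Excitatory markers had a median of -0.07 (-0.10 to -0.02) and all 8 slopes below 0, 1 of them at an unadjusted p under 0.05, with Slc17a7 at 932, 872 and 749 CPM. Inhibitory markers had a median of 0.03 over 8 genes, 6 above 0, and 0 at an unadjusted edgeR p under 0.05. DESeq2 called 0 genes in the inhibitory, excitatory and synaptic lists and 1 in the pan-neuronal list. The difference between these lists was not tested. Tau and its kinases had a median of -0.04 over 14 genes, 4 below 0 at an unadjusted p under 0.05. Mark4, a kinase that loosens tau from microtubules, had a slope of -0.14, and mouse Mapt one of -0.03.

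**Figure D5:**
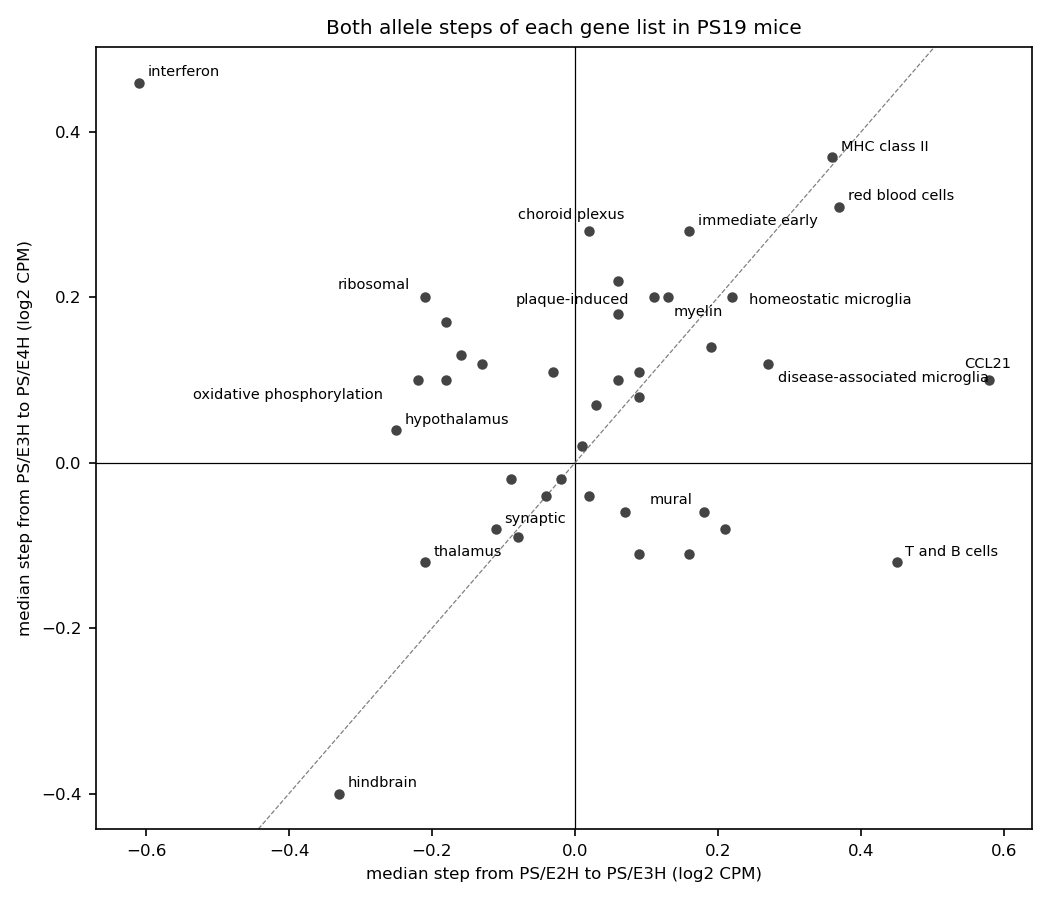
Median change of each list from APOE2 to APOE3 and from APOE3 to APOE4 in PS19 mice. Lists with both median steps on the same side of 0 can still hold genes that are not in order. Interferon and ribosomal genes have median steps of opposite sign.

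In interferon genes the median steps had opposite signs, though no departure passed (0 of 19). The 19 type I response genes had a median slope of -0.07 (-0.29 to -0.01 over the other settings) with 0 in order in either direction, since the steps were -0.61 and 0.46. Their median departure was -0.54, against 0.01 for all genes, and 9 of 19 had PS/E3H below the midpoint at an unadjusted edgeR p under 0.05 (background 3.93% below and 4.36% above). Isg15, a ubiquitin-like protein made on interferon, was at 7.98, 8.01, 5.76 and 6.96 CPM in PS/E2H mice, 2.2, 2.66, 2.67 and 4.97 in PS/E3H mice and 4.8, 3.95, 3.2 and 6.79 in PS/E4H mice. Every PS/E3H mouse is below every PS/E2H mouse, while PS/E4H overlaps both.

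Ribosomal genes and nuclear genes of respiration had median steps with the same signs. The 83 tested cytosolic ribosomal genes had steps of -0.21 and 0.20, a median slope of 0.00 and a median departure of -0.21, with 47 below the midpoint at an unadjusted p under 0.05. Nuclear genes of oxidative phosphorylation had steps of -0.22 and 0.10 and a median slope of -0.06 (-0.10 to 0.01 over the other settings), with 67 of 72 slopes below 0. At an unadjusted p under 0.05, 4 of the 72 slopes were below 0, near the 6.45% of all genes, and 20 genes had PS/E3H below the midpoint. No departure in either list passed the adjustment (0 of 83 and 0 of 72). The 13 genes on the mitochondrial genome differ: both steps were above 0, 0.09 and 0.08, at a median slope of 0.09, and 6 had an unadjusted p under 0.05. mt-Co1, a subunit of cytochrome oxidase, was at 24475, 25923 and 27742 CPM. The mitochondrial share of counts was 7.95%, 8.35% and 8.74%, with a slope of 0.392 (exact two-sided permutation p 0.0734, adjusted 0.184), and the share of the 10 highest genes had a slope of 0.314 (exact permutation p 0.0466, adjusted 0.184), so neither passed. Without PS/E2H replicate 1 or PS/E4H replicate 1 the mitochondrial slope was 0.541 or 0.527 (exact permutation p 0.0141 and 0.0196) and that of the 10 highest genes 0.427 or 0.414 (exact permutation p 0.00554 and 0.0104, all unadjusted), and without any other 1 mouse both shares had an exact permutation p of 0.0592 to 0.186. Their part in the slopes of other genes was not tested.

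Markers of dissected regions and of other tissues stand beside these lists. Thalamus markers had a median of -0.13 (-0.25 to -0.09 over the other settings), with all 6 below 0 and 2 at an unadjusted p under 0.05. Their summed CPM was 348, 313, 310 and 327 in PS/E2H, 233, 300, 302 and 272 in PS/E3H and 357, 213, 265 and 199 in PS/E4H mice. Prkcd, the most abundant, had a slope of -0.28. Cerebellum and hindbrain markers had a median of -0.73 over 5 tested genes, which ran from -0.91 to -0.20 with each mouse left out and up to -0.05 over all settings, Cbln1, a synapse organizer, at -0.23. Hypothalamus markers had a median of -0.13 over 10 (-0.20 to 0.00 over the other settings), with Pmch the most abundant, and striatum markers 0.04 over 11 (-0.03 to 0.17 over the other settings), with Penk the most abundant. Choroid plexus genes had a median of 0.17 over 10 (0.07 to 0.25), all above 0, with Ttr, the thyroxine carrier, at 671, 545 and 711 CPM. How much the dissected share of each region adds to the neuronal and thalamic slopes was not tested.

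Blood and vessel markers vary between mice of an allele, and this spread was not compared with that between alleles. Red blood cell genes had a median of 0.14 over 5 (-0.03 to 0.34 over the other settings) and summed CPM from 29.1 in PS/E2H replicate 4 to 379 in PS/E3H replicate 4. T and B cell genes had a median of 0.09 over 11 (-0.01 to 0.19), steps of 0.45 and -0.12, and Ighm, an antibody chain, as their most abundant gene. Endothelial genes had a median of -0.03 over 12 (-0.05 to 0.01) and mural and fibroblast genes -0.01 over 16 (-0.02 to 0.04). Pituitary hormones were represented by Tshb alone, at a slope of -0.14, with Lhb and Pou1f1 at 3 counts or fewer.

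Activity and stress lists are mixed. Immediate early genes, which neurons switch on within minutes of firing, had 12 of 12 slopes above 0 and a median of 0.23 (0.14 to 0.34 over the other settings), and 0 had an unadjusted edgeR p under 0.05. Arc, which reaches active synapses, was at 46.5, 129, 59.4 and 106 CPM in PS/E2H mice, 207, 45.3, 46.4 and 108 in PS/E3H mice and 107, 139, 47.4 and 144 in PS/E4H mice. Its spread within groups exceeds the differences between them. Heat shock genes had a median of -0.05 over 11 (-0.06 to 0.01) and endoplasmic reticulum stress genes -0.02 over 14 (-0.02 to 0.01), although Atf3, a stress transcription factor, had means of 3, 4.69 and 5.78 CPM and a slope of 0.48. Glucocorticoid and fasting genes had -0.06 over 12 (-0.11 to 0.09), clock genes 0.04 over 15 (-0.01 to 0.08) and proliferation genes 0.06 over 10 (0.00 to 0.10). The 2 tested sex-linked genes, Xist and Ddx3y, had slopes of -0.28 and 0.78, which follow the mix of mice described above.

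The same lists in the 9 mice without the tau transgene give slopes that share no mouse with the PS19 slopes. E4H replicate 3 had Ddx3y at 57.0 CPM and Xist at 2.54, and the other mice had Xist at 227 to 484 CPM, so sex chromosome content is not balanced there either, and its part in the list medians of these slopes and of their difference was not tested. There, 4 of 21010 genes passed by edgeR (0.019%), at 2972 with an unadjusted p under 0.05 (14.1%; 5.58% above 0 and 8.56% below), and DESeq2 called 309. They are Serpina3m, Dnah6, Esyt2 and Pon2, named after their values were seen. Serpina3m, a relative of Serpina3n, had a slope of 4.27 there (edgeR adjusted p 0.0178; 3 mice an allele) and 2.67 in PS19 mice, and Dnah6, a dynein of cilia, 1.08 and 0.71. There were 0 calls without E2H replicate 3, E3H replicate 2, E4H replicate 1 or E4H replicate 3, at 2729, 2753, 2494 and 3491 genes with an unadjusted edgeR p under 0.05. Without E4H replicate 2 there was 1 call, of a gene outside the 4, and without E2H replicate 2 there were 6, with 3 of the 4 among them.

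Microglial and myelin lists had medians below 0 in mice without the transgene, where those of PS19 mice were above 0. The disease-associated list was at -0.13 with 6 of 24 genes below 0 at an unadjusted p under 0.05 and 0 above, the complement list at -0.12 with 7 of 14 below, and the plaque-induced list at -0.10 with 21 of 53 below and 1 above. MHC class II genes were at -0.14 with 2 of 8 below, and homeostatic microglial genes at -0.09 with 4 of 13. Myelin genes were at -0.05 with 1 of 16, against 8.56% of all genes. Astrocyte lists were near 0, at -0.04 for pan-reactive genes (1 above 0 and 1 below at an unadjusted p under 0.05) and -0.03 for homeostatic ones. Serpina3n had a slope of 1.17 (edgeR adjusted p 0.111), on the side of its PS19 slope and not told apart from it (difference -0.43, edgeR adjusted p 0.624), with means of 31.1, 26.4 and 155 CPM in E2H, E3H and E4H. Oligodendrocyte precursor genes differ: they were at 0.13, with 4 of 6 above 0 at an unadjusted p under 0.05, beside 0.00 in PS19 mice. Synaptic genes were at 0.06, again opposite to their PS19 median. Ribosomal genes were at -0.21 with 60 of 83 below 0 at an unadjusted p under 0.05, oxidative phosphorylation genes at -0.19 with 57 of 72, and immediate early genes at -0.35 with 8 of 12. Red blood cell genes were at -0.55 with 5 of 5, and their part in the other medians was not tested.

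Whether slopes differ with tau was tested by an interaction term in all 21 mice. It called 0 of 22237 genes by edgeR (0%), at 2298 with an unadjusted p under 0.05 (10.3%; 5.68% above 0 and 4.65% below), and DESeq2 called 94. Leaving out 1 mouse gave 0 in 19 of the 21 fits, 2 without PS/E3H replicate 1 and 1 without PS/E4H replicate 3. At an unadjusted p under 0.05, 33 of 53 plaque-induced genes had a higher slope in PS19 mice and 1 a lower one, at a median difference of 0.28. The disease-associated list had 12 of 24 (median difference 0.34), MHC class II 7 of 8 (0.55), myelin 11 of 16 (0.25) and lysosome 11 of 22 (0.16), against a median of 0.01 for all genes. Lists of other kinds had differences of this size too: ribosomal genes 42 of 83 (0.22), mitochondrially encoded genes 7 of 13 (0.17), immediate early genes 5 of 12 (0.50) and red blood cell genes 0 of 5 (0.68). Their part in the differences of the glial lists was not tested. The median differences of the lists were not followed with each mouse left out. Synaptic genes had 5 of 15 with a lower slope and 0 with a higher one, at a median difference of -0.13. C1qa had slopes of 0.19 in PS19 mice and -0.27 in the others, a difference of 0.47 (edgeR adjusted p 0.215), and Adar, which edits RNA and was named after its values were seen, had the lowest p, with slopes of -0.03 and 0.26 (edgeR adjusted p 0.118). The parental mice were killed by age and the PS19 mice at paralysis, so tau and time of death cannot be told apart in this difference.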

How the data were processed

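RNA of forebrain was sequenced for the authors by LC Sciences from stranded libraries of polyadenylated RNA, 1 library a mouse. Reads were trimmed with Cutadapt and aligned to GRCm38 with HISAT2. Transcripts were assembled with StringTie and merged with perl scripts and gffcompare, and their expression was estimated with StringTie and ballgown. The deposited matrix holds the count of reads per gene and mouse, and the deposited tables hold FPKM, and neither the step that gave the counts nor the versions of these tools are stated. The count matrix lists 55401 genes, 55141 of which have a symbol and position in GENCODE M21.

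The 12 PS19 mice were fitted in edgeR 4.0.16 (R 4.3.3) with APOE as 1 numeric term, TMM scaling, filterByExpr (minimum count 10, minimum total 15) and the quasi-likelihood F test, adjusted by Benjamini-Hochberg at 0.05. Departure is a quadratic term beside the slope, parental mice (9) were fitted alone, and the interaction used all 21. Group steps are differences of mean log2 CPM with a prior count of 2. Library measures were tested by exact two-sided permutation. At a median of 61352387 counts a library, the filter's minimum of 10 counts is a very low CPM, and genes near it have wide errors. DESeq2 1.42.0 (Wald test) and limma 3.58.1 on log2(FPKM + 1) or log2(FPKM + 0.1) were alternatives, beside DESeq2 size factors, no filter, 3 groups with a linear contrast, all 21 mice, a fold of at least 2, Xist as a covariate, replicate number as a block, and leaving out each mouse. Shared sequence was counted in GENCODE M21 transcripts in windows of 50 bases with Python 3.11.15. The edgeR slope fit of the 12 PS19 mice was tested on simulated counts, and the other fits were not.

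Genes named are those called and in order (up to 12 a direction), the 3 with the smallest p a direction for departure, of each list the member with the smallest p in each direction and the one with the highest FPKM, and a fixed set that includes Apoe, Mapt, Trem2, Gfap and Serpina3n. Members and lists were chosen with earlier results of these data known. Human transgene reads were left out.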

Additional observations from a re-analysis of the deposited data

Results flagged for a closer look

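In 15 of 219 groups of 4 mice checked, the highest or lowest mouse lay so far from the other 3 that its gap passed Dixon's 95% limit, and chance gives about 1 such group in 20. Lgals4 in PS/E2H replicate 4 was at 3.25 CPM, against 2.05 to 2.19 in the other 3. PS/E4H replicate 1 stood high in 3 glial genes: C1qa at 226 CPM (others 182 to 184), Itgax at 38.6 (19.6 to 21.1) and Mpeg1 at 217 (141 to 154). It was also low in the summed heat shock list, 3623 CPM against 4253 to 4367. Capn11 in PS/E4H replicate 3 was at 2.02 CPM, and Nnt in PS/E2H replicate 2 at 30.8 (35.5 to 36.2). Total counts were 70384215 in PS/E2H replicate 1, against 59265459 to 60655306 in the rest of its group.

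Summed CPM of 7 more lists set a mouse apart. PS/E3H replicate 1 was high in the synaptic list, 7052 (5579 to 5737), and in the list of tau and its kinases, 2399 (2129 to 2140). The hypothalamus list was at 144 in PS/E3H replicate 2 (54.7 to 67.3), and the red blood cell list at 379 in PS/E3H replicate 4 (56.1 to 92.6). Glucocorticoid and fasting genes were at 1700 in PS/E2H replicate 4 (828 to 935). PS/E2H replicate 2 was low in homeostatic astrocyte genes, 7918 (9038 to 9091), and PS/E4H replicate 4 in the CCL21 list, 68.6 (82.4 to 84.1). What sets these mice apart was not tested.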

How the results depend on the processing

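The slopes of the 6 called genes kept their direction in every setting run. Over 2838 slopes of named genes under an alternative, 2657 kept their direction and their side of the threshold, 57 no longer passed, 37 passed only under the alternative, and 87 that passed in neither case changed sign. Of 924 list medians, 922 moved by less than 1 standard deviation of the list's level between mice of an allele, and the other 2 are of the sex-linked list. This is a wide margin, and medians near 0 changed sign within it, those of mural cells in 9 of 22 settings and of striatum in 3 of 22. Trend calls were 6, and 32 with 3 groups and a linear contrast, 180 by DESeq2, 100 with all 21 mice in 1 fit, 12 on log2(FPKM + 0.1) and 0 in the mice with Xist (1233 at an unadjusted edgeR p under 0.05; chosen after seeing the data; DESeq2 was not run there). Of these, 20, 160, 76, 12 and 0 were in order. DESeq2 size factors gave 6, the fold of at least 2 gave 6, log2(FPKM + 1) and Xist as a covariate 5 each, of which 2 and 4 are among the 6, and no filter and the replicate block 4 each, of which 3 are in both cases. Departure calls were 13, and 47 by DESeq2 and 8 with replicate number as a block. Parental trend calls were 4, and 309 by DESeq2 and 0 with the block (2496 at an unadjusted edgeR p under 0.05). Calls for the difference of slopes were 0 by edgeR (2298 at an unadjusted p under 0.05) and 94 by DESeq2. The cause of these differences was not tested, beyond the fewer mice in the fit with Xist only.

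With each mouse left out, trend calls ran from 0 to 8, those in order from 0 to 8, departure calls from 9 to 18, parental calls from 0 to 6 and calls for the difference from 0 to 2. The slope of total counts ran from -898317 to 857276, that of the mitochondrial share from 0.28 to 0.541 and that of the share of the 10 highest genes from 0.241 to 0.427. Replicate number paired no libraries: 1 of 12 PS19 mice was most like a mouse of its own number.

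Age at death, sex and dissection are not in the labels for single mice, and with 4 mice an allele a gene at a few counts cannot be followed in order. Low genes such as Lgals4 and Gm45844 had 21 to 251 counts a mouse, at total counts of 59265459 to 72693566.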
